A study of Mus musculus with 5 samples.

Results

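The genes described here are 43 listed members of the cell's responses to damaged or misfolded protein and to amino acid shortage, chosen by symbol from 52029 genes of a mouse hepatobiliary organoid data set. They form 3 arms: 21 genes of the unfolded protein response of the endoplasmic reticulum (ER), 10 genes of the ATF4 response and 12 genes of the heat shock response. All 43 were found in both deposited tables, and all 43 were among the 15899 genes that passed the low-count filter. Hepatobiliary organoids are epithelial cultures of the liver that renew themselves, here from wild-type primary liver stem/progenitor cells of the mouse. The 5 libraries of total RNA, all taken at day 10, were 2 of organoids grown alone, labelled passage 1, and 3 of organoids grown together with liver endothelial cells (LiECs), labelled passage 8. The growth medium given for all of them held heparin, nicotinamide, ECGS, the kinase inhibitor Y-27632, EGF, serum replacement and antibiotics. Co-culture and passage cannot be told apart in this design. Whether the libraries within a group came from separate cultures or animals is not stated, so the p-values reflect no more than variation among these libraries, and that may be technical.

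Proteins that enter the ER are folded by resident chaperones. When unfolded chains collect there, the sensors ATF6, IRE1 (gene Ern1) and PERK (gene Eif2ak3) raise the transcription of those chaperones and slow protein synthesis. PERK acts by phosphorylating eIF2, which several other kinases also do when amino acids or haem run short, and this favours translation of ATF4, a transcription factor for genes of amino acid synthesis. The heat shock response is a separate system of the cytosol and nucleus, driven by HSF1. Secretory epithelia such as bile duct cells and hepatocytes use the ER system heavily. Much of the control of these pathways lies in translation, phosphorylation and, for Xbp1, in unconventional splicing, which counts per gene do not show.

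The organoids alone (M11 and M12) and the co-culture libraries M9 and M10 share 1 table and held between 26466724 and 35878185 counts. The third co-culture library came in a table of its own, counted on another gene annotation, and held 58853737 counts; it has no test. Mitochondrially encoded protein genes took 2.06% to 2.58% of counts in the first 4 and 5.93% in the third co-culture library. Biliary and progenitor markers were all above 1 CPM (counts relative to the scaled library size) in every library. Of these 10 markers Krt7, Krt19 and Prom1 were called higher in M9 and M10 (1.11 ± 0.15, 1.15 ± 0.18 and 1.19 ± 0.15 in log2, edgeR), while the third co-culture library differed by -0.80, -0.60 and 1.29. The list as a whole had 5 positive and 5 negative fold changes, with a median of -0.013. Spp1 was among the negative ones, at 2000 CPM in M11 and 2724 in M12 against 1101 in M9 and 634 in M10 (-1.44 ± 0.31, adjusted p = 0.0825, edgeR). Of the 10 hepatocyte markers 3 and 4 were over 1 CPM in M11 and M12, and 1 and 2 in M9 and M10. Alb was called lower, at 16.2 CPM in M11 and 50.4 in M12 against 0.148 in M9 and 0.257 in M10, with 63.1 CPM in the third co-culture library. The hepatocyte markers did not move alike. Of the 4 tested, 2 had positive fold changes that were not called, Ttr (1.01) and Apoa1 (2.74). Ttr was at 37.5 CPM in M11 and 42.7 in M12 against 55.2 in M9 and 106 in M10, with 220 CPM in the third co-culture library. The 20 endothelial markers summed to 140.4 and 134 CPM in M11 and M12, 39.5 and 45.4 in M9 and M10, and 94.9 in the co-culture library of the other table, most of it Flt4. That sum followed Flt4, which was called lower (-2.22), and the list was split in sign. Of its 7 tested genes 3 had positive and 4 negative fold changes. The positive values included Flt1 (1.28) and Egfl7 (0.41), neither of them called. The defining endothelial genes Pecam1, Cdh5, Kdr and Stab2 each stayed at or below 0.312 CPM in all 5 libraries. The 9 mesenchymal markers summed to 36.1 and 107 CPM in M11 and M12 and 5.78 and 5.37 CPM in M9 and M10, and the 7 macrophage markers, mostly Cd14, to 662 and 587 CPM against 314 and 283. That sum followed Cd14, and the macrophage list was split in sign. Among its 4 tested genes, Cd14 (-1.22) and Lyz2 (-5.91) were called lower. Cd68 (0.79) and Csf1r (0.47) pointed upward without a call. What part the cells behind these marker lists had in the results was not tested. In such bulk samples fewer cells of a type and less RNA per cell cannot be told apart.

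None of the 43 genes passed the test between M9 and M10 and the organoids alone (edgeR quasi-likelihood test, Benjamini-Hochberg adjusted p under 0.05 over all genes tested), where 2.24% of all genes did. At an unadjusted p under 0.05 there were 6 of 43 members, 13.95% of them, against 17.5% of all genes. Those 6 were Hspb1, Eif2ak3, Dnajc3, Hyou1, Xbp1 and Calr. DESeq2 called 2 of 43 members, Hspb1 higher and Eif2ak3 lower, where it called 8.6% of all genes. Limma-voom called 0 members (6 at an unadjusted p under 0.05) and 1.79% of all genes, and edgeR without a low-count filter 3 members and 4.92%. Differences between the arms were not tested. The ER arm had a median log2 fold change of -0.13 with 15 of 21 genes negative, the ATF4 arm 0.27 with 8 of 10 positive, and the heat shock arm 0.08 with 7 of 12 positive; over all genes tested the median was 0.00 with 50.1% positive. Without M10 the median of the ATF4 arm was -0.10 and that of the heat shock arm 0.20; without M9 they were 0.61 and -0.17.

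**Figure D1:**
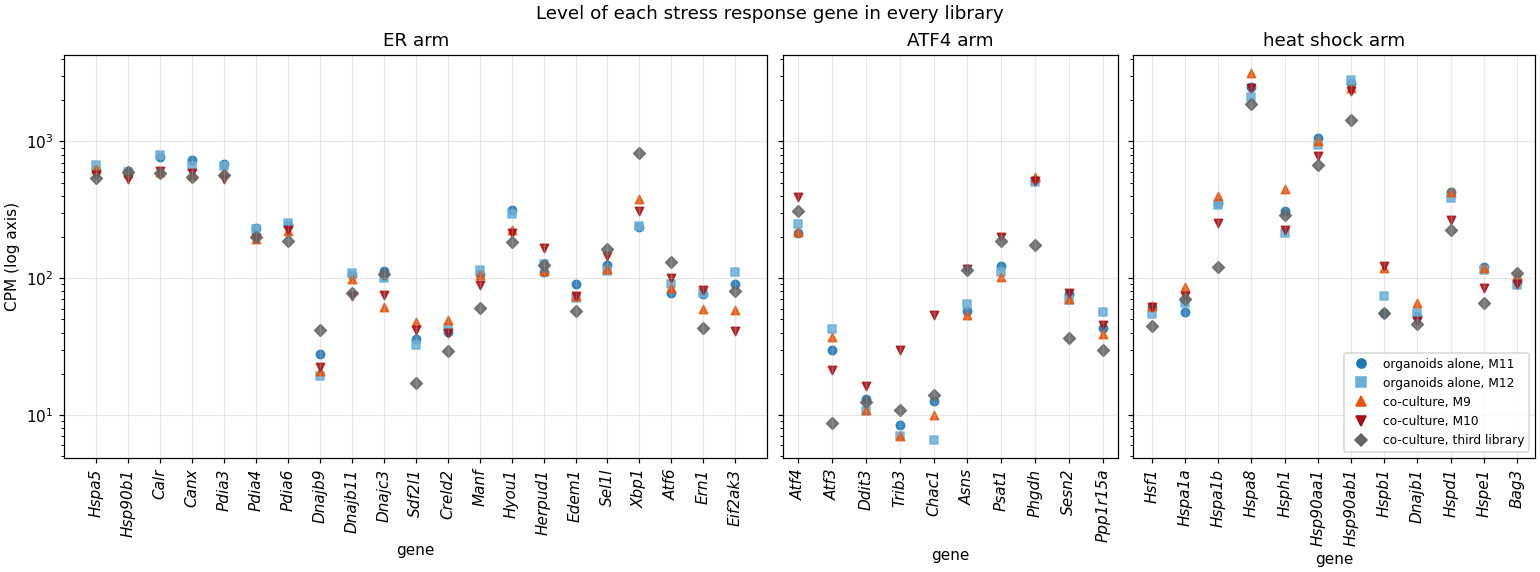
Level of the 43 genes in each of the 5 libraries, in CPM on a log axis, with 1 panel for each arm. Points of the 4 libraries of the shared table mostly lie close together; Chac1 and Trib3 in M10, Xbp1 and Atf3 in the third co-culture library and Eif2ak3 and Hspb1 in M9 and M10 stand off from the organoids alone.

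Per length, the cytosolic chaperones Hsp90ab1 and Hspa8 were the most abundant members. Hsp90ab1, the constitutive HSP90, was at 887 and 931 CPM per kilobase of merged exons (GENCODE M21) in M11 and M12, and Hspa8, the constitutive HSP70, at 576 and 494. Of the ER proteins, Calr, Pdia3 and Hspa5 were the most abundant on this scale, with means over the organoids alone of 273, 214 and 152, and Phgdh led the ATF4 arm at 206. The lowest means were those of Trib3 at 3.64, Chac1 at 5.86 and Ddit3 at 6.98. Hsp90aa1, the inducible HSP90, was also high at 253, and the regulators Hsf1 and Atf6 were low at 8.20 and 9.11.

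Of the 14 ER folding genes 12 had negative fold changes, over a range of -0.63 to 0.38. Hspa5 encodes BiP, the ER form of HSP70 and the protein that holds the sensors inactive. It was at 621 CPM in M11 and 669 in M12 against 629 in M9 and 564 in M10. On the log2 scale this was a change of -0.11 ± 0.15 (± SE throughout; adjusted p = 0.769 by edgeR). The groups overlapped for this gene, and the third co-culture library lay at 539 CPM. Hsp90b1, the ER form of HSP90, was as level, at 604 CPM in M11 and 599.9 in M12 against 585 in M9 and 532 in M10 and 595 CPM in the third co-culture library. Promoters of ER chaperone genes are known for the ER stress element (ERSE), bound by ATF6 and XBP1 together with NF-Y. The sequences of Hspa5, Hsp90b1 and Dnajc3 show this shared element, in capitals, in the 250 bases before and 50 after the gene start (5′ to 3′ on the gene's strand, RefSeq, GRCm38.p6). Their windows are chr2:34771840-34772139 on the plus strand, chr10:86705395-86705694 on the minus strand and chr14:118937682-118937981 on the plus strand.
Hspa5: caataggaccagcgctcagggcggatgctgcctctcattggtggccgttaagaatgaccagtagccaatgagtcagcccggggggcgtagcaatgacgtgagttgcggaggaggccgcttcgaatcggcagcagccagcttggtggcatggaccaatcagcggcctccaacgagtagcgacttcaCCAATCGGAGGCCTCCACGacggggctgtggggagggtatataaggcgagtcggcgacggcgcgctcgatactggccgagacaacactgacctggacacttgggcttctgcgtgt
Hsp90b1: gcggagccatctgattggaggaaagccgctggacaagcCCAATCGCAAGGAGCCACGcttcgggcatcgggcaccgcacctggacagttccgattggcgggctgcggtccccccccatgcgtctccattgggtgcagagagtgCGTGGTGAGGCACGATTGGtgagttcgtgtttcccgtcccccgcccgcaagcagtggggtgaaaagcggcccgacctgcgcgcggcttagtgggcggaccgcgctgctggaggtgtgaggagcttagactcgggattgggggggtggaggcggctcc
Dnajc3: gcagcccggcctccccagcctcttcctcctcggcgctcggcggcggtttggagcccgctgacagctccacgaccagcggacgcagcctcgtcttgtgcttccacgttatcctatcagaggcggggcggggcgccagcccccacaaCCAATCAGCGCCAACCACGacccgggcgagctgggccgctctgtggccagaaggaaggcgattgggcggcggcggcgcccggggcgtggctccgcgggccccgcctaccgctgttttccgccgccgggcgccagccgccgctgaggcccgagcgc
The letters searched were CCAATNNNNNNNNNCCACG on both strands. A match was held by 7 of the 18 ER genes with a promoter in the reference (Calr, Canx, Creld2, Dnajc3, Hsp90b1, Hspa5 and Pdia6), against 0 of 10 ATF4 genes, 0 of 8 heat shock genes and 0.137% of all 27025 genes with a promoter. The variant ERSE-II, in which the first block is turned to the opposite strand and 1 base separates the blocks, was found in Dnajb11 and Herpud1 and in 0.0444% of all. The core letters TGACGTGG, bound by spliced XBP1, were in 0 of the 36 members with a promoter and in 0.714% of all. A match describes these letters and does not show a bound site.

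Among the folding genes with lower values in M9 and M10 were Calr, Hyou1 and Dnajc3. Calr, calreticulin, binds calcium and glycoproteins in the ER lumen. It was at 771 CPM in M11 and 800.2 in M12 against 601 in M9 and 604 in M10, a change of -0.38 ± 0.14 (adjusted p = 0.241, edgeR). Both co-culture values lay below both others, and the third co-culture library was at 583 CPM. Hyou1, a large nucleotide exchange chaperone of the ER, was at 315 CPM in M11 and 296 in M12 against 227 in M9 and 213 in M10 (-0.47 ± 0.14, adjusted p = 0.176, edgeR), with 185 CPM in the third co-culture library. Dnajc3, a co-chaperone of BiP also known as an inhibitor of PERK, was at 114 CPM in M11 and 99.6 in M12 against 61.9 in M9 and 75.5 in M10 (-0.63 ± 0.17, adjusted p = 0.141, edgeR). It passed the test without a low-count filter (adjusted p = 0.0386, edgeR). It did not pass with all 5 libraries (adjusted p = 0.645, edgeR), in a fit that called almost no gene. With each library of the shared table left out in turn, the value ran from -0.78 to -0.49. Here the third co-culture library did not follow, at 107 CPM between M11 and M12. Groups did not overlap for 11 of the 14 folding genes, or 78.6%, and for 17 of all 43 members, or 39.5%, against 49.4% of all genes tested.

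The other folding genes moved little between M9 and M10 and the organoids alone. Canx, the membrane-bound partner of calreticulin, and the disulfide isomerases Pdia3, Pdia4 and Pdia6 had changes between -0.27 and -0.17. Dnajb11, a BiP co-chaperone, was at -0.31 ± 0.19 and Dnajb9, one that recruits BiP to IRE1, at -0.12 ± 0.24. Manf, a secreted ER stress protein, was at -0.19 ± 0.16, with adjusted p of 0.622 (edgeR). Its exons share 146 bases with the oppositely transcribed Dcaf1 and 14 with Rbm15b on the same strand. Dcaf1 held 5812 counts and Rbm15b 11925 in the shared table, against 12966 for Manf. The part of their reads in the Manf values was not tested. Sdf2l1 and Creld2, small ER proteins induced by ER stress, were the 2 folding genes with positive values, 0.38 ± 0.17 and 0.09 ± 0.19. Sdf2l1 was at 35.8 CPM in M11 and 32.6 in M12 against 47.6 in M9 and 41.7 in M10, so M9 and M10 were both above the organoids alone, while the third co-culture library was lowest at 17.1 CPM. None of these differences passed the test.

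In the degradation branch, which returns misfolded proteins to the cytosol, Herpud1 was the most variable. Herpud1 organises the membrane complex for this export and was at 111 CPM in M11 and 127 in M12 against 112 in M9 and 167 in M10. M10 stood above the other libraries of the table and M9 lay between M11 and M12, giving 0.23 ± 0.22 (adjusted p = 0.669, edgeR). Edem1, a lectin for terminally misfolded glycoproteins, was at -0.13 ± 0.17 and Sel1l, the scaffold of the ubiquitin ligase, at 0.13 ± 0.17; groups overlapped for all 3 genes.

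The sensors and their effector Xbp1 went in different directions. Eif2ak3, which encodes PERK, was at 90.5 CPM in M11 and 110.2 in M12 against 59.0 in M9 and 40.9 in M10, or 100.4 ± 13.9 against 49.9 ± 12.8 CPM (SD, n = 2 each). Both co-culture values lay below both values of the organoids alone, with a log2 fold change of -1.01 ± 0.23 (adjusted p = 0.0954, edgeR). In the third co-culture library Eif2ak3 was at 80.1 CPM, a log2 difference of -0.33 from the mean of M11 and M12. DESeq2 put its adjusted p at 0.00368, and edgeR without a low-count filter at 0.000305. Without M9 edgeR gave -1.28 and without M10 -0.76, each with 1 co-culture library left. Without M11 it gave -1.14 and without M12 -0.86, each with 1 library of organoids alone left. With all 5 libraries Eif2ak3 was not called (-0.75, adjusted p = 0.513, edgeR), in a fit that called only 2 of all genes. Eif2ak3 (ENSMUSG00000031668), a protein-coding gene, spans chr6:70844515-70905245, plus strand, in GRCm38.

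Xbp1, the transcription factor activated when IRE1 splices its RNA, was at 235 CPM in M11 and 239.5 in M12 against 379 in M9 and 309.6 in M10, a change of 0.54 ± 0.16 (adjusted p = 0.177, edgeR). Both co-culture values were above both of the organoids alone, and the third co-culture library was higher again at 816 CPM. With M9 as the only co-culture library the value was 0.68, and with M10 as the only co-culture library 0.40. With all 5 libraries Xbp1 was not called (adjusted p = 0.535, edgeR), in a fit that called only 2 of all genes. The log2 difference of the third co-culture library from the mean of M11 and M12 was 1.77. It was the only one of the 43 members over 2-fold above the organoids alone in that library, where 13.3% of all genes were. The protein-coding gene Xbp1 (ENSMUSG00000020484) spans chr11:5520659-5525893, plus strand, in GRCm38. Atf6, the sensor that is cut and moves to the nucleus, was at 0.14 ± 0.17 and Ern1, the IRE1 kinase and nuclease, at -0.13 ± 0.19. The groups overlapped for both.

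**Figure D2:**
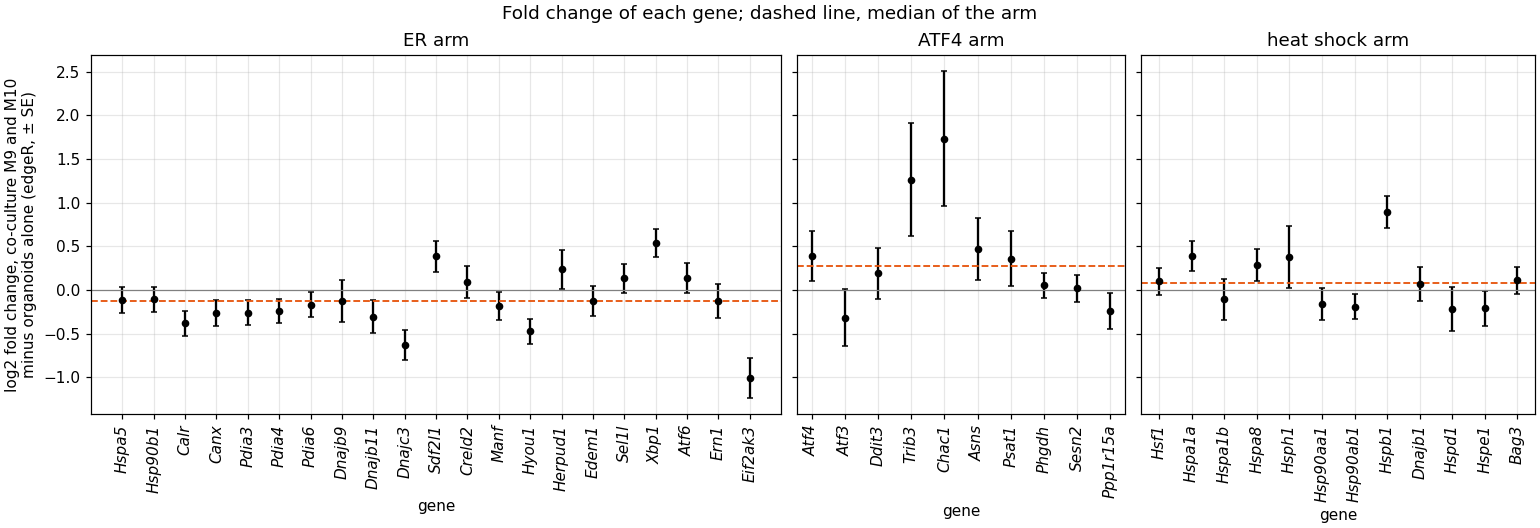
Log2 fold change of each gene between co-culture M9 and M10 and the organoids alone, with its standard error from edgeR; the dashed line is the median of the arm (-0.13, 0.27 and 0.08). Most ER genes lie just under 0 with short bars, and Chac1 and Trib3 have the widest bars.

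The ATF4 arm differed mainly between the 2 co-culture libraries of the shared table. Atf4, the transcription factor itself, was at 215 CPM in M11 and 251 in M12 against 219 in M9 and 391 in M10, so that M10 stood above the other 3 and M9 lay between M11 and M12. Chac1, which breaks down glutathione and is a sensitive target of ATF4, was at 12.6 CPM in M11 and 6.61 in M12 against 10.1 in M9 and 53.7 in M10. M9 again lay between the organoids alone, and M10 was 2.40 above M9 on the log2 scale. Trib3, a pseudokinase that restrains ATF4, was at 8.40 CPM in M11 and 7.06 in M12 against 7.001 in M9 and 30.0045 in M10, a log2 difference of 2.09 between M10 and M9. The pair M11 and M12 differed by -0.92 for Chac1 and -0.25 for Trib3 on the same scale. With 1 library in each position these differences between M10 and M9 have no test.

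Of the genes of amino acid synthesis, Asns and Psat1 were also highest in M10. Asns, asparagine synthetase, was at 57.6 CPM in M11 and 65.2 in M12 against 53.6 in M9 and 116 in M10, and Psat1, of serine synthesis, at 123 CPM in M11 and 111 in M12 against 101 in M9 and 199 in M10. M9 was the lowest of the 4 libraries for both. Phgdh, the enzyme that opens the serine pathway, did not share this order, at 520.0 CPM in M11 and 504 in M12 against 551 in M9 and 512 in M10. Ddit3, the proapoptotic factor CHOP, was at 13.2 CPM in M11 and 10.7 in M12 against 10.98 in M9 and 16.3 in M10, a difference of 0.57 between M10 and M9. The table holds 2 gene identifiers named Ddit3, of which the second had at most 1.77 counts and was left out. The exons of Ddit3 share 68 bases with the oppositely transcribed Mars1. Mars1 held 13628 counts in the shared table against 1613 for Ddit3, and its log2 difference between M10 and M9 was 0.59. The part of Mars1 reads in the Ddit3 values was not tested.

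The remaining members of the arm were level or went the other way. Sesn2, a stress-induced inhibitor of mTORC1, was at 0.02 ± 0.15 and Ppp1r15a, which recruits the phosphatase that restores eIF2, at -0.24 ± 0.20. Atf3, a factor induced by ATF4 and by many other stresses, was at 29.8 CPM in M11 and 42.8 in M12 against 37.0 in M9 and 21.3 in M10, with M10 the lowest of the 4. Of the 10 genes, M10 lay above M9 in 8 and over 2-fold above it in 3 (Chac1, Trib3 and Asns), or 30% of the arm against 7.93% of all genes tested. Over the 43 members 3 were over 2-fold above and 0 over 2-fold below M9, where 6.47% of all genes were below. The median difference between M10 and M9 was 0.70 in the ATF4 arm, -0.0037 in the ER arm, -0.36 in the heat shock arm and 0.00 over all genes tested.

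With both libraries in the test no gene of the arm was called: the log2 fold changes were 0.39 ± 0.29 for Atf4, 1.73 ± 0.77 for Chac1, 1.26 ± 0.65 for Trib3, 0.47 ± 0.36 for Asns and 0.36 ± 0.32 for Psat1 (adjusted p from 0.330 to 0.640, edgeR). With M9 left out, Atf3 was at -0.76, Ppp1r15a at -0.12, Phgdh at 0.01, Sesn2 at 0.11 and Ddit3 at 0.46. In that fit the 5 genes above were at 0.76, 2.50, 1.97, 0.93 and 0.78. These 5 had been set apart by their high values in M10, so their p-values there are no separate evidence of a rise. The adjusted p then ran from 0.000537 for Trib3 to 0.0176 for Chac1 (edgeR), with M10 as the only co-culture library and assumed to vary like the organoids alone; 1294 of all genes were then higher and 1325 lower, 15.7% of those tested. With M10 left out they were -0.08, 0.08, -0.14, -0.19 and -0.21, none of them called, where 493 of all genes were higher and 621 lower, 6.68% of those tested. Within the shared table the direction for Atf4, Trib3, Asns and Psat1 thus rested on M10; the third co-culture library lay above the organoids alone for these 4 genes, by 0.39, 0.48, 0.89 and 0.66 in log2.

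Promoters of ATF4 targets are known for a composite C/EBP-ATF element. The stricter letters TGATGNAAT gave 0 matches in the 10 promoters of the arm and were in 1.08% of all. The shorter core TGATGNAA, which contains them and was added after that search, was in 4 of 10 (Asns, Atf3, Chac1 and Trib3), in Herpud1 of the ER arm, in 0 of 8 heat shock promoters and in 4.51% of all. The 4 windows are shown because these genes did not move alike, Atf3 being lower in M10 while the other 3 were higher; the core is in capitals, on either strand. They lie at chr2:119350992-119351291 on the plus strand, chr2:152344011-152344310 on the minus strand, chr6:7693160-7693459 on the minus strand and chr1:191183284-191183583 on the minus strand (GRCm38.p6, RefSeq).
Chac1: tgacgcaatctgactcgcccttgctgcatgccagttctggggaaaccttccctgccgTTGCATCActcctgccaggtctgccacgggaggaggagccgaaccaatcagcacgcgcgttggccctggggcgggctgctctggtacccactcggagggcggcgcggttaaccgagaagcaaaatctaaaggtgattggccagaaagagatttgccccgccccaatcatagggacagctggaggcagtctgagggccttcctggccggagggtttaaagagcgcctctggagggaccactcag
Trib3: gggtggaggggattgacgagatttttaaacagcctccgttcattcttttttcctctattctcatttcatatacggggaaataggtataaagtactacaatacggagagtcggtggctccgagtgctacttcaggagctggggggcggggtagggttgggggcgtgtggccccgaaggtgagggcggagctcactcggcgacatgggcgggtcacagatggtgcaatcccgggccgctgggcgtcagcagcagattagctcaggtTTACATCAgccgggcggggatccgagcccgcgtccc
Asns: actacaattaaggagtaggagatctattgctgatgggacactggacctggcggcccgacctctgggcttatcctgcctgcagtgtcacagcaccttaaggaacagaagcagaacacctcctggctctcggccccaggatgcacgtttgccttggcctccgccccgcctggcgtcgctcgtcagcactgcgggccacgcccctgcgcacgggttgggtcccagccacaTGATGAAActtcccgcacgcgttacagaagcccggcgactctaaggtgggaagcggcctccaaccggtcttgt
Atf3: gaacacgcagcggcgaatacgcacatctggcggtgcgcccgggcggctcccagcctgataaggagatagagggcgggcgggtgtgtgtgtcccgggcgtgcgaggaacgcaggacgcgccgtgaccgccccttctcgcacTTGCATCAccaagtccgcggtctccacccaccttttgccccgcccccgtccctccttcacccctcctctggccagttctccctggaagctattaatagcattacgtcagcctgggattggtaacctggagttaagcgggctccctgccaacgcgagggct
In Trib3 the match lies after the gene start, and in the other 3 before it.

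**Figure D3:**
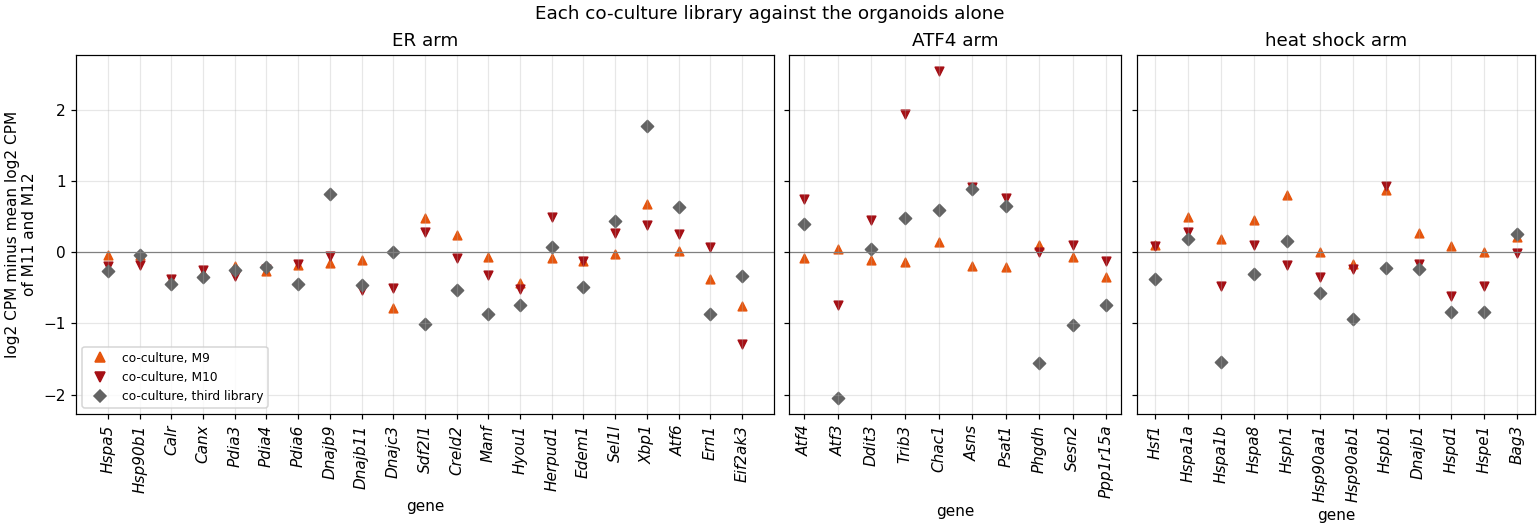
Log2 CPM of each co-culture library minus the mean of M11 and M12 on that scale, by gene and arm. In the ATF4 arm M10 lies far above M9 for Chac1, Trib3, Asns, Psat1 and Atf4; in the heat shock arm M9 lies above M10 for 11 of 12 genes.

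A second list of 43 ATF4 targets and genes of eIF2 control, none of them members, held 42 tested genes. None passed the test (4 at an unadjusted p under 0.05; DESeq2 called 3 higher and 1 lower, limma-voom 0), and 30 of 42 had a positive fold change, with a median of 0.14. M10 was above M9 in 33 of 42 and over 2-fold above it in 10, or 23.8% against 7.93% of all genes. The 10, named after their values were seen, were Aldh1l2, Pycr1, Vldlr, Gpt2, Atf5, Pck2, Jdp2, Aldh18a1, Slc7a5 and Mthfd2. Aldh1l2, of mitochondrial folate metabolism, was at 3.01 CPM in M11 and 4.87 in M12 against 1.57 in M9 and 21.4 in M10. Pck2, the mitochondrial PEP carboxykinase, was at 75.6 CPM in M11 and 70.0 in M12 against 68.3 in M9 and 177 in M10 and Mthfd2, of mitochondrial one-carbon metabolism, at 51.0 CPM in M11 and 47.6 in M12 against 42.95 in M9 and 88.0 in M10. For these 3 M10 was the highest and M9 the lowest of the 4 libraries, which did not hold for all 10. Vldlr was at 27.8 CPM in M11 and 23.0 in M12 against 43.8 in M9 and 139 in M10. Pycr1 was at 5.39 CPM in M11 and 5.79 in M12 against 6.08 in M9 and 20.9 in M10. For Vldlr and Pycr1, M9 thus also lay above both libraries of organoids alone. Slc7a11, the cystine transporter, also named after its values were seen, went the other way, at 76.7 CPM in M11 and 102 in M12 against 45.4 in M9 and 18.1 in M10, with a fold change of -1.49 ± 0.43 (adjusted p = 0.162, edgeR). The 2 most abundant genes of the list were Slc38a2, an amino acid transporter, at 0.39 ± 0.16 (adjusted p = 0.292), and Ddit4, an inhibitor of mTORC1, which was higher in M9 and M10 alike at 405 and 424 against 238 and 210.1 CPM (0.89 ± 0.15, adjusted p = 0.0503, edgeR). The third co-culture library was lowest for Ddit4, at 106 CPM (-1.09).

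**Figure D4:**
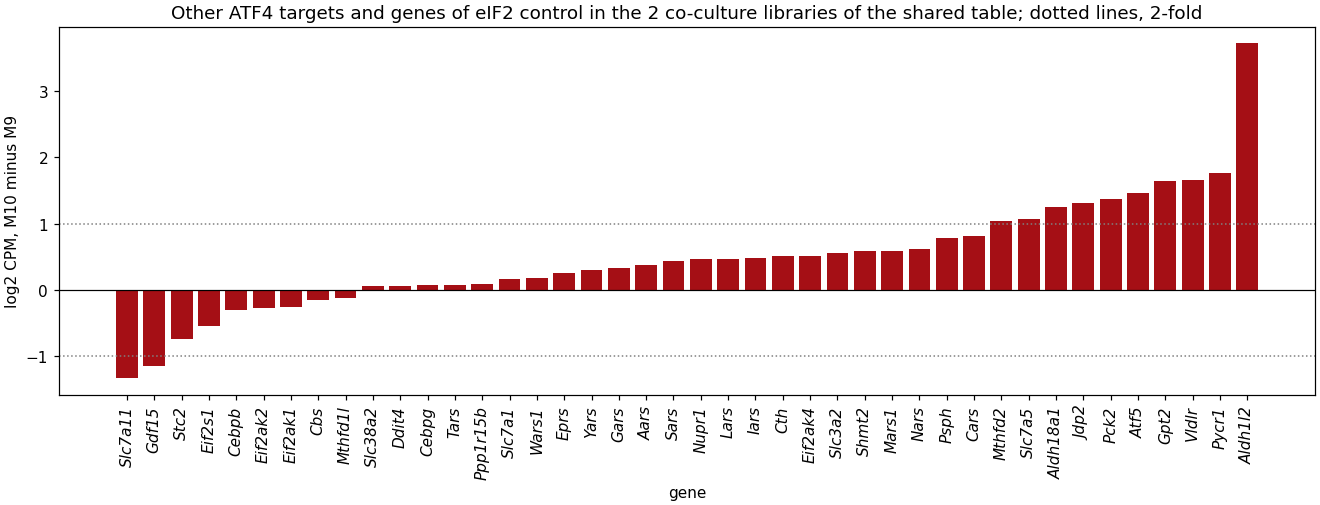
Log2 CPM of M10 minus M9 for the 42 tested genes of the second ATF4 list, sorted; bars start at 0 and dotted lines mark 2-fold. Of the 42 bars 33 point up and 10 pass the upper line, and 2 (Slc7a11 and Gdf15) pass the lower.

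In the heat shock arm Hspb1 had the smallest p of all 43 genes. Hspb1 encodes the small chaperone HSP25, which holds unfolded proteins and binds actin filaments. Its level was 55.9 CPM in M11 and 73.6 in M12 against 118 in M9 and 123 in M10, or 64.8 ± 12.5 against 121 ± 3.25 CPM (SD, n = 2 each). Both co-culture values lay above both of the organoids alone, by 0.90 ± 0.18 in log2 (adjusted p = 0.0773, edgeR). The third co-culture library did not share this difference, at 55.6 CPM, below M11. DESeq2 called Hspb1 (adjusted p = 0.00236), as did edgeR without a low-count filter (adjusted p = 0.000732). With M12 as the only library of organoids alone the value was 0.72, and with M11 as the only such library 1.11. With all 5 libraries Hspb1 was not called (0.61, adjusted p = 0.633, edgeR), in a fit that called only 2 of all genes. Hspb1 (ENSMUSG00000004951), protein coding, spans chr5:135887919-135889563, plus strand, in GRCm38.

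The inducible HSP70 genes Hspa1a and Hspa1b lie beside each other on chromosome 17, and their longest open reading frames are identical at 1890 positions, or 98.1%, so the split of reads between them is uncertain. Hspa1b was at 356 CPM in M11 and 344 in M12 against 398 in M9 and 251 in M10 and Hspa1a at 56.4 CPM in M11 and 66.3 in M12 against 86.3 in M9 and 74.5 in M10. Their sum was 413 and 409.9 CPM in M11 and M12, and the co-culture libraries M9, M10 and the third had 484, 326 and 192 CPM. The log2 fold change was -0.02 ± 0.22 between M9 and M10 and the organoids alone (adjusted p = 0.975, edgeR): M9 was above and M10 below the organoids alone. Hspa1a made up 13.7% and 16.2% of the sum in M11 and M12 and 36.6% in the third co-culture library, which was counted on the other annotation.

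Other HSP70 genes and partners also had their highest value in M9. Hsph1, the HSP70 exchange factor HSP110, was at 307 CPM in M11 and 214 in M12 against 450.4 in M9 and 226 in M10, with M9 far above and M10 within the range of the organoids alone. Hspa8 was at 2479 CPM in M11 and 2126 in M12 against 3144 in M9 and 2464 in M10, with M9 again the highest. Dnajb1, the HSP40 that delivers clients, was at 52.8 CPM in M11 and 56.2 in M12 against 65.7 in M9 and 48.6 in M10, M9 being highest and M10 lowest. M9 exceeded M10 in 11 of the 12 heat shock genes, all but Hspb1, and the number over 2-fold apart was 0. The largest of these differences were those of Hsph1 (-0.995), Hspd1 (-0.70) and Hspa1b (-0.66), given as M10 minus M9 on the log2 scale.

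Hspd1 and Hspe1, the mitochondrial chaperonin and its lid, are transcribed in opposite directions from a common start region and went together. Hspd1 was at 425 CPM in M11 and 383 in M12 against 429.6 in M9 and 265 in M10, and Hspe1 at 121 CPM in M11 and 114 in M12 against 119 in M9 and 84.8 in M10. M10 was the lowest library of the 4 for both, and M9 lay above M12. With M10 as the only co-culture library Hspd1 was at -0.60, and with M9 as the only co-culture library at 0.09. Their exons share 112 bases, which an unstranded count could not assign. The heat shock element, searched as GAANNTTCNNGAA or TTCNNGAANNTTC on both strands, was in 3 of 8 heat shock promoters in the table (Hspd1, Hspe1 and Hsph1), in 0 of 28 promoters of the other arms and in 0.662% of all. The Hspe1 window, chr1:55087898-55088197 on the plus strand, covers nearly the same bases as that of Hspd1 and is shown for both, with the element in capitals.
Hspe1: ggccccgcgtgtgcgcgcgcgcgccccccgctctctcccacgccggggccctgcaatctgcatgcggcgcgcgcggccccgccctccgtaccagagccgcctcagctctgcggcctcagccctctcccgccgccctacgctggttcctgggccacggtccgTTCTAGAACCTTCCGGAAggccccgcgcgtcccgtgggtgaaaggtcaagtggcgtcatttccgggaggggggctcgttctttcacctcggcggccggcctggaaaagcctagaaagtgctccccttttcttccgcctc

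HSP90 and the regulators differed little between the groups. Hsp90ab1 was at 2660.4 CPM in M11 and 2793 in M12 against 2444 in M9 and 2318 in M10 (-0.20 ± 0.14, adjusted p = 0.559, edgeR) and Hsp90aa1, the inducible HSP90, at -0.16 ± 0.18. Hsf1, the factor that drives the response, was at 61.6 CPM in M11 and 54.9 in M12 against 62.7 in M9 and 61.9 in M10, and Bag3, a co-chaperone of HSP70 in selective autophagy, at 0.11 ± 0.15. None of these passed the test.

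The third co-culture library, set against the same M11 and M12 as the comparison above, had a median log2 difference of -0.33 in the ER arm, 0.22 in the ATF4 arm and -0.34 in the heat shock arm, and of -0.02 over 14508 tested genes that could be joined. It lay below the mean of M11 and M12 in 28 of 43 members. Over 2-fold lower were 5 of them, or 11.6%, against 17.6% of all genes. These were Atf3, Phgdh, Hspa1b, Sesn2 and Sdf2l1. Atf3 was at 8.70 CPM (-2.04), Phgdh at 175 CPM (-1.56) and Hspa1b at 122 CPM (-1.53). Sesn2 was at 36.3 CPM (-1.02) and Sdf2l1 at 17.1 CPM (-1.01). Atf3 and Hspa1b were also lower in M10 than in M9, while Phgdh and Sesn2 were level in all 4 libraries of the shared table. The third library was counted on other gene models, and their part in these differences was not tested.

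Genes of the ATF4 arm went both ways in that library. Asns at 115 CPM and Psat1 at 186 CPM were close to M10 (116 and 199), and Atf4 at 308 CPM lay between M9 and M10. Chac1 at 13.96 (0.60) and Trib3 at 10.9 CPM (0.48) lay above both libraries of organoids alone and far below M10. In the second ATF4 list 26 of 42 genes were above the organoids alone there, with Atf5 at 153 CPM (2.304) and Slc7a11 at 8.09 CPM (-3.45) at the extremes. Of the 14 ER folding genes 12 were below the organoids alone there, with Manf at -0.87 and Hyou1 at -0.74. The other two were Dnajb9 at 41.5 CPM (0.82) and Dnajc3 (0.00). The cytosolic chaperone Hsp90ab1 at 1433 CPM was lower than in any other library.

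Further chaperone genes, from lists that hold no member, gave 2 calls. Of 35 other ER quality control genes 0 passed the test (3 at an unadjusted p under 0.05; DESeq2 called 1 and limma-voom 0) and the median was 0.06. P4hb, a disulfide isomerase, was the most abundant at 0.26 ± 0.14, and Sec61a1, of the translocation channel, the next at -0.18 ± 0.15. Ero1a, the oxidase that feeds the isomerases and named after its values were seen, was at 76.3 CPM in M11 and 61.1 in M12 against 104 in M9 and 542 in M10. M10 thus stood far above M9 for Ero1a too, at a fold change of 2.23 ± 0.72 (adjusted p = 0.196, edgeR), while the third co-culture library was at 62.0 CPM, within the range of the organoids alone. Of 44 genes on a list of other chaperones, nearly all cytosolic or mitochondrial, 2 fell and 0 rose, where 2.24% of all genes were called, and the median was -0.11. The 2 included Serpinh1, the collagen chaperone HSP47, which works in the ER although it stood on this list. With all 5 libraries none of the 44 was called, but that fit called only 2 of all genes. Without M11 or without M12 only 1 library of organoids alone is left, so those fits cannot decide a call. DESeq2 called 4 lower, where it called 8.6% of all genes. Serpinh1 fell from 66.3 ± 10.2 to 2.03 ± 1.53 CPM (SD, n = 2 each), -5.02 ± 0.55 on the log2 scale (adjusted p = 0.0203, edgeR), with 1.15 CPM in the third co-culture library. Cryab, the small heat shock protein alpha-B-crystallin, fell from 85.2 ± 1.88 to 28.2 ± 3.45 CPM (-1.60 ± 0.17, adjusted p = 0.0197, edgeR), with 58.4 CPM in the third co-culture library. Hspb1 and Cryab, 2 small heat shock proteins, thus had opposite signs in M9 and M10. In the third co-culture library both lay below the organoids alone, by -0.22 and -0.56 in log2. Hspb6 (0.58) and Hspb8 (-3.09), small heat shock proteins of low CPM on the same list, were not called. All 7 tested mesenchymal markers also had negative fold changes. Col3a1 was at 2.60 CPM in M11 and 12.03 in M12 against 0 in M9 and 0.0285 in M10. Within the organoids alone the order was not shared. Serpinh1 was at 73.5 CPM in M11 and 59.1 in M12, where the mesenchymal markers summed to 36.1 and 107 CPM. The part of these markers in the fall of Serpinh1 was not tested.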

How the data were processed

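Total RNA of 5 libraries was sequenced from stranded, rRNA-depleted preparations, per the labels' protocols. Per the submitters' processing notes, StringTie 2.1.3b, HISAT2 2.1.0, Bowtie2 2.3.4.1, FastQC 0.11.7 and Trimmomatic 0.38 were used, with mm10 and GRCh37 as builds and no role stated. What counted the reads, and whether by strand, is not given in the sources used here; counts of overlapping genes are therefore uncertain. The authors deposited estimated counts per Ensembl gene for M9 to M12, per the file headers, and whole-number counts per RefSeq gene for the third co-culture library; 10 columns of length-normalised values were not used. The columns M9 to M12 name a group but no sample, and the third library's column carries another number than its record.

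One row was kept per gene and estimated counts were rounded. M9 and M10 were tested against M11 and M12 by the robust quasi-likelihood test of edgeR 4.0.16 (R 4.3.3), after filterByExpr and TMM scaling, with Benjamini-Hochberg adjustment at 0.05; an SE is the absolute log2 fold change over the square root of F. The test was also run on simulated data, but the setting and outcome are not reported here, so that run lends the calls no support. The third library was joined by symbol for 32541 genes with 92.6% of its counts and scaled over 5 libraries with a prior count of 2; the scaling of the other 4 relative to each other then shifted by at most 1.48%. Gene positions are from GENCODE M21 (GRCm38) and promoters from RefSeq (GRCm38.p6), found for 36 of 43 members; none was found for Atf6, Hsf1, Hsp90aa1, Hsp90ab1, Hspa8, Hyou1 and Manf. The named genes are all members, called genes of 3 further lists (up to 6 each) or else their 2 most abundant; markers and further genes of those lists were named after their values were seen. Members and lists were chosen with earlier results of these data known. Alternatives were other scalings, filters, DESeq2 1.42.0, limma-voom (limma 3.58.1), each library left out and all 5 libraries.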

Additional observations from a re-analysis of the deposited data

How the results depend on the processing

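Upper quartile and RLE scaling left the direction and call of all 43 members as they were, as did a stricter low-count filter and limma-voom. Library totals alone gave medians of -0.15 (members) and -0.17 (ER arm), third-library medians of -0.27 and -0.29, and Sesn2 at -0.023. DESeq2 called 633 genes higher and 681 lower, among them 1 higher and 1 lower member (heat shock and ER arm), 1 higher other ER gene, 3 higher and 1 lower other ATF4 genes and 4 lower other chaperones. No low-count filter gave 667 higher and 737 lower genes, with 1 higher (heat shock) and 2 lower (ER arm) members, 1 higher other ER gene and 2 higher other ATF4 genes; the stricter filter gave 1 higher other ATF4 gene and limma-voom 102 higher genes. With all 5 libraries 0 genes were higher and 2 lower, 0 of them other chaperones, the medians were -0.16 (members) and -0.24 (ER arm), and Dnajb9 (0.25), Creld2 (-0.090), Phgdh (-0.31), Sesn2 (-0.25), Hsf1 (-0.045) and Dnajb1 (-0.026) changed sign. Hspa1a summed with Hspa1b, a setting added after seeing the data, was at -0.022. The cause of these shifts was not tested.

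Leaving out 1 library, all genes called ran from 0 to 1294 higher and 0 to 1325 lower, members from 0 to 6 higher and 0 to 2 lower. By list the calls ran from 0 to 1 higher and 0 to 2 lower (ER arm), 0 to 5 higher (ATF4 arm), 0 to 1 higher and 0 to 1 lower (heat shock arm), 0 to 5 higher (other ER), 0 to 16 higher and 0 to 2 lower (other ATF4) and 0 to 7 lower (other chaperones). Medians ran from -0.12 to 0.039 (members), -0.17 to -0.13 (ER arm), -0.10 to 0.61 (ATF4 arm), -0.17 to 0.20 (heat shock arm), -0.030 to 0.18 (other ER), -0.092 to 0.38 (other ATF4) and -0.12 to 0.012 (other chaperones), and those of the third library from -0.32 to -0.26 (ER arm) and -0.29 to -0.26 (members). Signs turned in 13 members without M10, 4 without M9, 2 without M11 and 1 without M12; the ranges of their log2 fold changes were Dnajb9 -0.36 to 0.17, Edem1 -0.29 to 0.050, Sesn2 -0.058 to 0.11, Creld2 -0.073 to 0.25, Ern1 -0.37 to 0.094, Hsph1 -0.19 to 0.79, Dnajb1 -0.15 to 0.27, Herpud1 -0.077 to 0.51, Sel1l -0.024 to 0.29, Atf4 -0.084 to 0.76, Atf3 -0.76 to 0.030, Ddit3 -0.12 to 0.46, Trib3 -0.14 to 1.97, Asns -0.19 to 0.93, Psat1 -0.21 to 0.78, Hspa1b -0.47 to 0.19, Hsp90aa1 -0.34 to 0.013, Hspd1 -0.60 to 0.093, Hspe1 -0.46 to 0.014. No paired analysis was possible because the columns of the shared table carry no replicate number.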
